A study of Mus musculus with 2 samples.

Results

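The genes described here encode the molecules that display peptides and lipids to T cells, together with the proteins that load and regulate them. They were chosen by name: every gene whose platform symbol starts with H2-, the mouse major histocompatibility complex (MHC), and B2m, Cd74, Tap1, Tap2, Tapbp, Ciita, Nlrc5, Erap1, Calr, Pdia3, Canx, Cd80, Cd86 and Cd1d1. The rule itself uses names and no measured value, although it was drawn up with earlier results of these data known. Of 19494 genes with a named probe set, 47 met the rule, 35 with an H2- symbol and 12 with another symbol. They comprised 2 classical class I genes, 24 non-classical class I genes, 9 class II genes, 11 accessory genes and H2-Ke6, which lies in the same region and encodes a steroid dehydrogenase rather than an MHC molecule. Cd74 and Nlrc5 had no named probe set and were not analysed here, nor were 15 other H2- genes of the reference annotation, among them H2-Ea, H2-Q6 and H2-Q7.

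Classical class I molecules are heavy chains paired with B2m, carry peptides cut from proteins of the cytosol and are read by CD8+ T cells. Tap1 and Tap2 pump those peptides into the endoplasmic reticulum, where Tapbp, Calr, Pdia3 and Canx assist loading and Erap1 trims. Class II molecules are pairs of an alpha and a beta chain, carry peptides of endocytosed proteins and are read by CD4+ T cells. In the brain, class II expression is known mainly from activated microglia, border macrophages and infiltrating leukocytes, and class I is low in resting neural cells and inducible by interferon.

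Male C.B-17/Icr-+/+Jcl mice aged 7 weeks underwent middle cerebral artery occlusion (MCAO) by electrical coagulation. All had lived with a running wheel beforehand, and all received BrdU in the first days. The MCAO + exercise group then had a running wheel for 15 days, and the MCAO + non-exercise group had none. On postoperative day 15, cells bearing the astrocyte surface antigen ACSA-2 were sorted with magnetic beads from the cortex on the side of the occlusion, and RNA extracts were pooled within each group. Each pool was measured on 1 Clariom S array, so animals were pooled, the spread between animals was not measured, and no difference was tested.

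The array signals were normalized intensities on a linear scale, and log2 was taken. The medians over all 22142 probe sets were 6.73 on the MCAO + exercise array and 6.81 on the MCAO + non-exercise array, and both arrays reached 19.93. A gene counted as above background where it passed the 25th percentile of the named probe sets, 4.89 on the MCAO + exercise array and 5.08 on the MCAO + non-exercise array, on at least 1 array. That kept 15196 of all genes and 38 of the 47 members. Signals of different probe sets do not order transcripts by abundance, so levels are compared between arrays and not between genes. All 12 astrocyte markers were above background, and so were 11 of 11 measured microglia markers and 7 of 7 oligodendrocyte markers. Fewer cells of a type and less RNA per cell cannot be told apart in such pools.

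Every difference is the log2 value of MCAO + exercise minus that of MCAO + non-exercise, by the deposited labels. This direction is opposite to the lists of regulated genes in the study: of 80 listed genes, 72 could be matched, and 72 had the other sign. Which of them carries the wrong sign cannot be told from the arrays alone, and the study's other assays that bear on direction were not used here. The direction of each difference therefore holds by label only. Its size does not depend on the labels, but rests on 1 array per pool with no measured spread.

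None of the 38 members above background passed a log2 difference of 1 in either direction, which says nothing of H2- genes without a named probe set. H2-Ea-ps, which the study lists among its regulated genes, is one of these and was not analysed here. By its symbol it belongs to the E genes of class II, so the class II values below lack a gene that the study placed past 1. Among all kept genes, 3.77% exceeded a difference of 1 and 2.36% lay under -1. With each array centred on the median of its kept genes, which lowered the median difference of all kept genes to -0.07 from 0.04, those counts moved to 433 higher and 575 lower, against 573 and 359, and the members past 1 were still 0. At a threshold of 0.5, chosen after the values were seen, 6 members were lower (H2-Ab1, H2-Aa, H2-Q1, H2-Eb1, H2-M3 and Tap2) and only H2-Oa was higher. The shares over all kept genes were 14.1% lower and 17.4% higher, so 6 of 38 is near the background share of lower genes. The background depended on signal. Of kept genes with a mean log2 level under 8, 21.6% were lower by more than 0.5, against 7.01% from 8 to 12 and 3.82% at 12 and over. The members lower by more than 0.5 numbered 2 of 13, 3 of 16 and 1 of 9 from the dimmest band to the brightest. The median difference over the 38 members was -0.07, with 16 higher and 22 lower, beside a median of 0.04 over all kept genes.

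**Figure D1:**
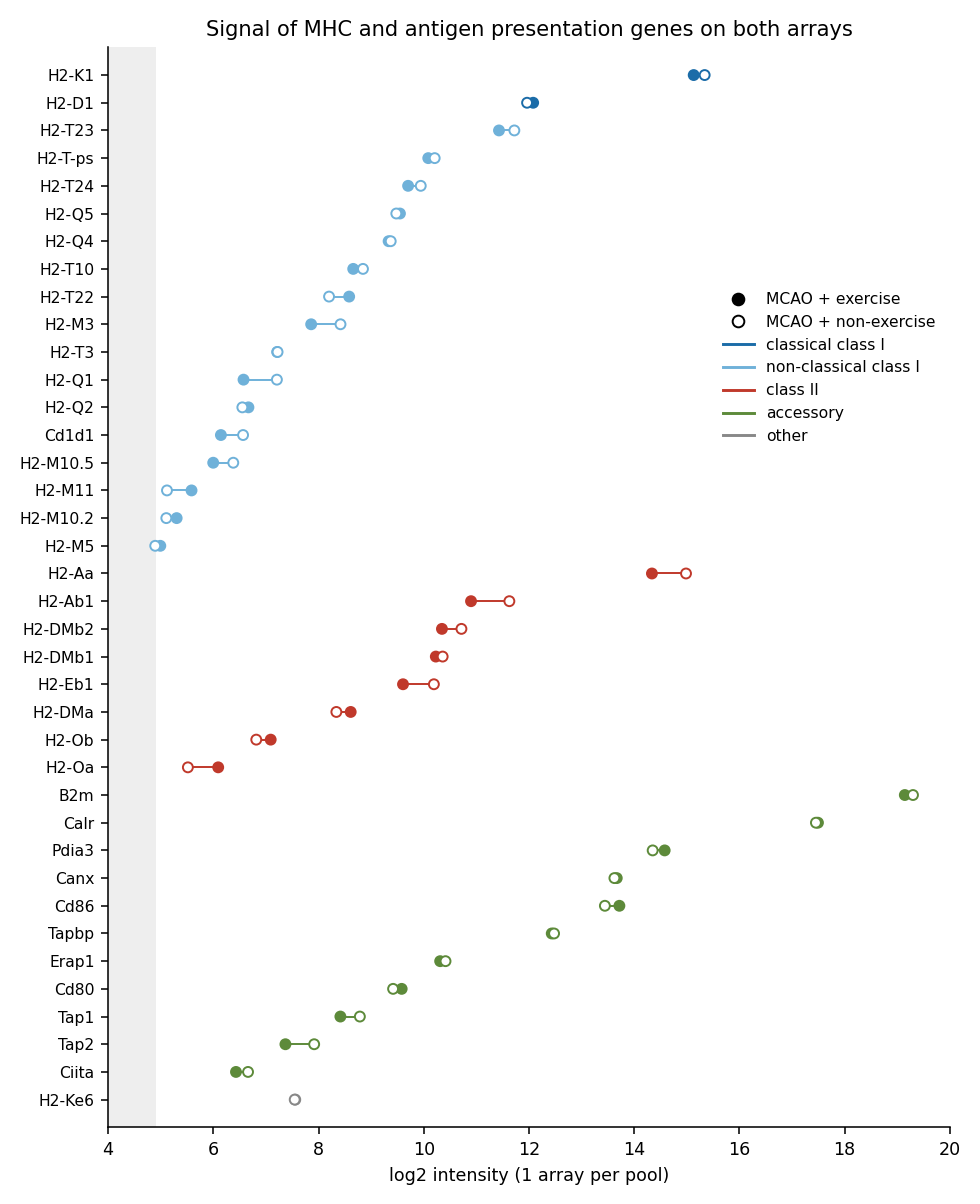
Log2 intensity of the 38 members above background on the MCAO + exercise array (filled) and the MCAO + non-exercise array (open), by class, with the range under the MCAO + exercise background of 4.89 shaded. The widest gaps within class II are those of H2-Ab1, H2-Aa, H2-Eb1 and H2-Oa, and the points of B2m, Calr and Canx nearly coincide.

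Class II was split by function. The chains that present antigen, H2-Ab1, H2-Aa and H2-Eb1, were lower by label on the MCAO + exercise array, whereas the editing chains of DM went both ways and the O chains were higher. H2-Ab1, the beta chain of the I-A molecule, had a log2 intensity of 10.90 in the MCAO + exercise pool and 11.63 in the MCAO + non-exercise pool. Its difference of -0.73 was the most negative among the members above background, and 6.55% of all kept genes lay below it. The signal of H2-Ab1 was thus 1.66-fold brighter on the MCAO + non-exercise array. H2-Aa, the alpha chain that pairs with it, had 14.34 in the MCAO + exercise pool and 14.98 in the MCAO + non-exercise pool. The difference of H2-Aa was -0.65, with 8.75% of kept genes below it, so the chains of the I-A pair differed by similar amounts. H2-Eb1, the beta chain of the I-E molecule, had 9.61 in the MCAO + exercise pool and 10.19 in the MCAO + non-exercise pool, a difference of -0.59. H2-Eb2, another E beta gene, was below background on both arrays and allows no comparison.

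DM and O act inside the cell. DM exchanges the peptide that holds the groove for antigen, and O, known mostly from B cells, restrains DM. H2-DMa, the DM alpha chain, had a log2 intensity of 8.61 in the MCAO + exercise pool and 8.34 in the MCAO + non-exercise pool, a difference of 0.27. Its beta chains had differences of the other sign, -0.37 for H2-DMb2 and -0.13 for H2-DMb1. H2-DMb2 read 10.35 in the MCAO + exercise pool and 10.72 in the MCAO + non-exercise pool. H2-Oa, the O alpha chain, had 6.09 in the MCAO + exercise pool and 5.52 in the MCAO + non-exercise pool, and its difference of 0.58 was the largest positive value among the members above background. This was a dim probe set, near the background of 5.08 in the MCAO + non-exercise pool. H2-Ob, the O beta chain, had 7.09 in the MCAO + exercise pool and 6.82 in the MCAO + non-exercise pool. As a result, the medians were -0.65 over the 3 presenting chains above background, -0.13 over the 3 DM chains and 0.43 over the 2 O chains. H2-Ab1, H2-Aa and H2-Eb1 lay below every DM and O chain. The highest of these 3 was at -0.59 and the lowest DM or O chain at -0.37. Of the 8 other settings tried, only quantile normalization, loess and an offset before log2 could change this order, and it held under each. The background settings, the mean of probe sets and median centring cannot reorder genes with 1 probe set each. H2-Eb2, which counts only with the background at the 10th percentile or with no filter, was then at 0.15, above both DM beta chains. Ciita, the transactivator on which class II transcription depends, had 6.43 in the MCAO + exercise pool and 6.66 in the MCAO + non-exercise pool, a difference of -0.23.

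**Figure D2:**
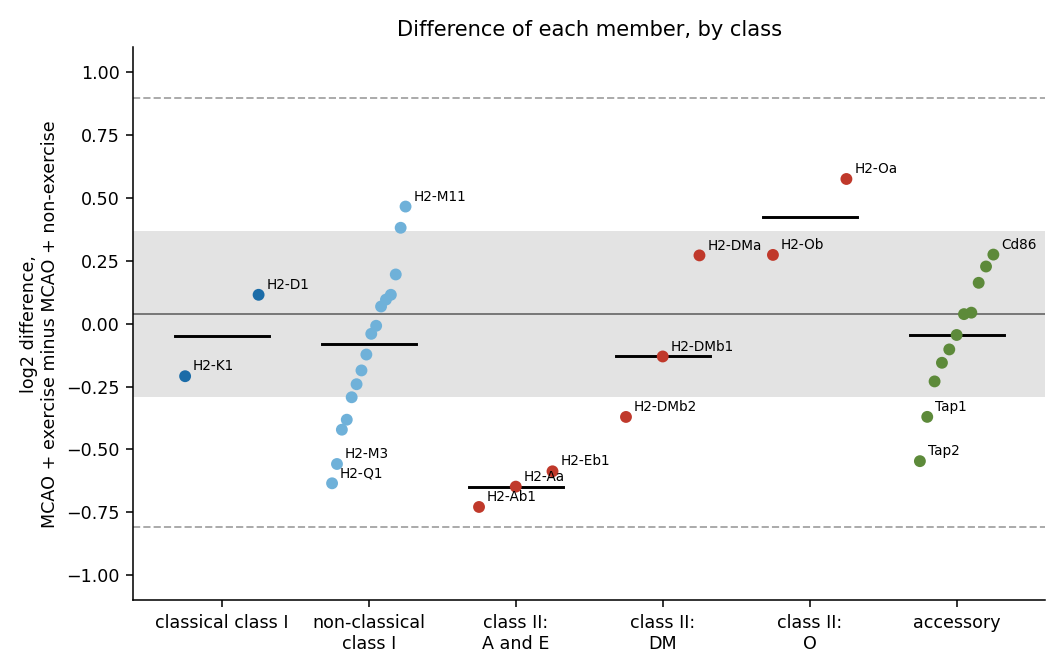
Log2 difference, MCAO + exercise minus MCAO + non-exercise, of each member above background, by class, with a black bar at the median. The grey band holds the middle of all kept genes, from -0.29 to 0.36, the grey line is their median of 0.04 and the dashed lines are their 5th and 95th percentiles, -0.81 and 0.90. The 3 presenting chains of class II lie below the band and H2-Oa above it.

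Class II promoters are known for an X box followed by a Y box, the sites of the RFX and NF-Y complexes through which CIITA acts. The stretches below show where members that went lower (H2-Aa, H2-Eb1, H2-DMb1) and a member that went higher (H2-Oa) carry these letters. Promoter windows from 250 bases before to 50 after the annotated start came from RefSeq (GRCm38.p6, the C57BL/6J genome, not the strain studied). They were found for 37 of the 47 members, in 40 windows, and H2-Ab1 was not among them. Each stretch is given 5′ to 3′ on the strand of the gene, with capitals for matches on either strand to CCAAT (Y box, ATTGG on the other strand) and GNAACNGAT (X1 core).
H2-Aa: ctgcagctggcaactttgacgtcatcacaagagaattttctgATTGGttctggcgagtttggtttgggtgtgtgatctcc
H2-Eb1: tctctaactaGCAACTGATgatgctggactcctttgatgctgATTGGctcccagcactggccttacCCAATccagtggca
H2-DMb1: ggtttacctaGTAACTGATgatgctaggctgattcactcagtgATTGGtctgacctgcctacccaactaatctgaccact
H2-Oa: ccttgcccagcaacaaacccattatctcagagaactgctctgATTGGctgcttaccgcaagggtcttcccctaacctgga

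The H2-Aa stretch is chr17:34287834-34287913 on the minus strand, and those on the plus strand are H2-Eb1 at chr17:34305766-34305845, H2-DMb1 at chr17:34153087-34153166 and H2-Oa at chr17:34092294-34092373. The Y box letters were in 8 of 9 class II windows, against 37.4% of 32851 windows of all genes. The X1 core was in 3 of the 9, those of H2-Eb1, H2-Eb2 and H2-DMb1, and in 2.05% of all windows. In H2-Eb1 and H2-Eb2 the X1 core began 32 bases before the Y box, and in H2-DMb1 33 bases before it. Both sets of letters therefore occurred in members with differences of -0.59 and -0.13, and the Y box alone in H2-Aa at -0.65 and H2-Oa at 0.58. A match is a description of letters, and no match says only that these letters were not in the window.

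Classical class I genes were close to level between the pools. H2-K1, a heavy chain, had a log2 intensity of 15.13 in the MCAO + exercise pool and 15.34 in the MCAO + non-exercise pool, a difference of -0.21. H2-D1, the other heavy chain measured, had 12.08 in the MCAO + exercise pool and 11.96 in the MCAO + non-exercise pool. The difference of H2-D1 was 0.12 and turned negative under quantile normalization and loess, to -0.08 at the lowest. Median centring was the only other setting that could turn a sign. The pair thus straddled 0, with a median of -0.05. B2m, the light chain shared by class I molecules, had 19.14 in the MCAO + exercise pool and 19.30 in the MCAO + non-exercise pool, a difference of -0.16. Heavy chain genes share much sequence, and how far their probe sets separate H2-K1, H2-D1 and the Q and T genes was not tested. No member had the same value on both arrays, and none shared both its values with another probe set.

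Class I promoters are known for an enhancer that binds NF-kB upstream of a Y box. The stretches below show this layout in H2-K1, H2-D1 and the non-classical H2-Q4, which was at -0.04. Capitals mark matches to GGGANTNCC (NF-kB-like) and to CCAAT on either strand, and these motifs do not overlap in the stretches shown.
H2-K1: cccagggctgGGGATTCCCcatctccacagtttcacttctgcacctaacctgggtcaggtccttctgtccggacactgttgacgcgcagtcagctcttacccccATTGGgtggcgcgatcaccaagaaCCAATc
H2-D1: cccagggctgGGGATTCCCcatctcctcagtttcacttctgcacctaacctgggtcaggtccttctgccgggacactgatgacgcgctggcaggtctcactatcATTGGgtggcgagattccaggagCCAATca
H2-Q4: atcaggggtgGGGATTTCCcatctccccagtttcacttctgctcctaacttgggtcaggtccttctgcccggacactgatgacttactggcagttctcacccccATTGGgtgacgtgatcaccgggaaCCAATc

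These stretches are chr17:34000334-34000467 on the minus strand for H2-K1, and chr17:35262914-35263047 for H2-D1 and chr17:35379434-35379567 for H2-Q4 on the plus strand, in GRCm38.p6. In each of them the NF-kB-like match began 94 bases before the first Y box. That match was present in 3 of 3 windows of classical class I genes, in 1 of 19 windows of non-classical genes, in 1 of 9 of class II and in 3.95% of all windows. The classical windows belong to 2 genes, since those of H2-K1 overlap and hold the same match. The class II window was that of H2-Aa, at -0.65, where the match began 83 bases before the Y box, outside the stretch shown. The interferon response letters GAAANNGAA were in the windows of B2m, Erap1, H2-T22 and H2-T23, and in 8.56% of all windows. Those genes had differences of -0.16, -0.10, 0.38 and -0.29 in that order, and so shared no direction.

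The peptide transporter was the part of the class I loading machinery that differed most. Tap2 had a log2 intensity of 7.37 in the MCAO + exercise pool and 7.92 in the MCAO + non-exercise pool, a difference of -0.55. Tap1, its partner, had 8.41 in the MCAO + exercise pool and 8.79 in the MCAO + non-exercise pool, a difference of -0.37. Both subunits of the transporter were lower by label, and 12.1% of all kept genes lay below Tap2 and 20.2% below Tap1. The mean level of Tap2 was 7.64, and of kept genes under 8, 21.6% were lower by more than 0.5. The chaperones of the endoplasmic reticulum, which serve many other proteins too, were near 0. Calr had 17.49 in the MCAO + exercise pool and 17.45 in the MCAO + non-exercise pool. Canx had 13.67 in the MCAO + exercise pool and 13.62 in the MCAO + non-exercise pool. The differences of 0.04 for both turned negative under median centring, quantile normalization and loess. Pdia3, a disulfide isomerase of the loading complex, was at 0.23, Tapbp, which bridges it to the transporter, at -0.04, and Erap1 at -0.10. The 8 loading genes had a median of -0.07, 3 of them higher.

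Cd86 and Cd80, ligands for the further signal that a naive T cell needs, were slightly higher by label, unlike most other costimulatory genes described further on. Cd86 had a log2 intensity of 13.72 in the MCAO + exercise pool and 13.44 in the MCAO + non-exercise pool, a difference of 0.28. Cd80 had 9.58 in the MCAO + exercise pool and 9.42 in the MCAO + non-exercise pool. Its difference of 0.16 turned negative under quantile normalization and loess. Over the 11 accessory genes as a whole the median was -0.04, with 5 higher and 6 lower.

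**Figure D3:**
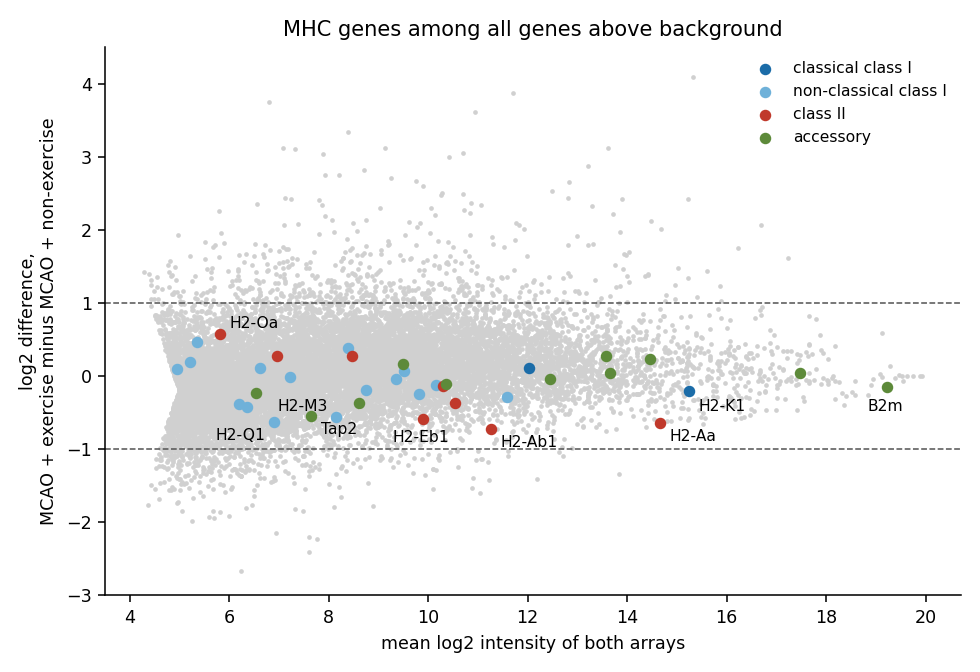
Log2 difference against mean log2 intensity of both arrays for the 15196 kept genes (grey, with 2 genes outside the range drawn) and the members above background (coloured by class), with dashed lines at differences of 1 and -1. No member passes either line, and H2-Aa is 1 of 59 kept genes at a mean level of 12 and over that are lower by more than 0.5.

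Non-classical class I genes, a large and varied set with limited polymorphism, were scattered around a median of -0.08. Of 24, 16 were above background on at least 1 array, 6 higher and 10 lower. H2-Q1 had a log2 intensity of 6.57 in the MCAO + exercise pool and 7.21 in the MCAO + non-exercise pool, and its difference of -0.63 was the most negative of them. H2-M3, which presents formylated peptides such as those of bacteria and mitochondria, had 7.86 in the MCAO + exercise pool and 8.42 in the MCAO + non-exercise pool, a difference of -0.56. Cd1d1, which presents lipids to NKT cells, had 6.14 in the MCAO + exercise pool and 6.57 in the MCAO + non-exercise pool, a difference of -0.42. These genes belong to separate branches of the family. H2-T23, the Qa-1 molecule that engages inhibitory receptors of NK cells, had 11.43 in the MCAO + exercise pool and 11.72 in the MCAO + non-exercise pool, a difference of -0.29. H2-T22, a ligand of some gamma delta T cells, went the other way, with 8.58 in the MCAO + exercise pool and 8.20 in the MCAO + non-exercise pool and a difference of 0.38. Its close relative H2-T10, a transcribed pseudogene in the reference annotation, was at -0.19. Of the 6 T genes above background, H2-T22 was the only higher one, except that H2-T3, at -0.01, also turned positive under quantile normalization and loess.

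The Q genes other than H2-Q1 were near 0, at 0.12 for H2-Q2, 0.07 for H2-Q5 and -0.04 for H2-Q4. Of 11 M genes, several of which are known from vomeronasal neurons, 5 were above background. H2-M11 had a log2 intensity of 5.59 in the MCAO + exercise pool and 5.12 in the MCAO + non-exercise pool, a difference of 0.47. H2-M10.2, H2-M10.5 and H2-M5 were at 0.20, -0.38 and 0.10. H2-M5 was above background only on the MCAO + exercise array, at 4.99, so its difference is no measured fold. The 9 members not above background on any array were H2-Bl, H2-Eb2, H2-Q10, H2-M1, H2-M9, H2-M10.1, H2-M10.3, H2-M10.4 and H2-M10.6.

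Side by side, the medians were -0.05 for classical class I, -0.08 for non-classical class I and -0.25 for class II, each within the middle range of all kept genes, -0.29 to 0.36. The values within class II ran from -0.73 to 0.58, a wider range than the -0.63 to 0.47 of the non-classical genes and the -0.21 to 0.12 of the classical pair. The lower median of class II rested on its membership. When the background was set at the 10th percentile, or no background filter was used, H2-Eb2 joined class II, its median was -0.13, and the non-classical median was -0.13 at the 10th percentile and -0.14 with no filter. Quantile normalization gave -0.22 for classical class I, -0.24 for non-classical class I and -0.44 for class II.

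**Figure D4:**
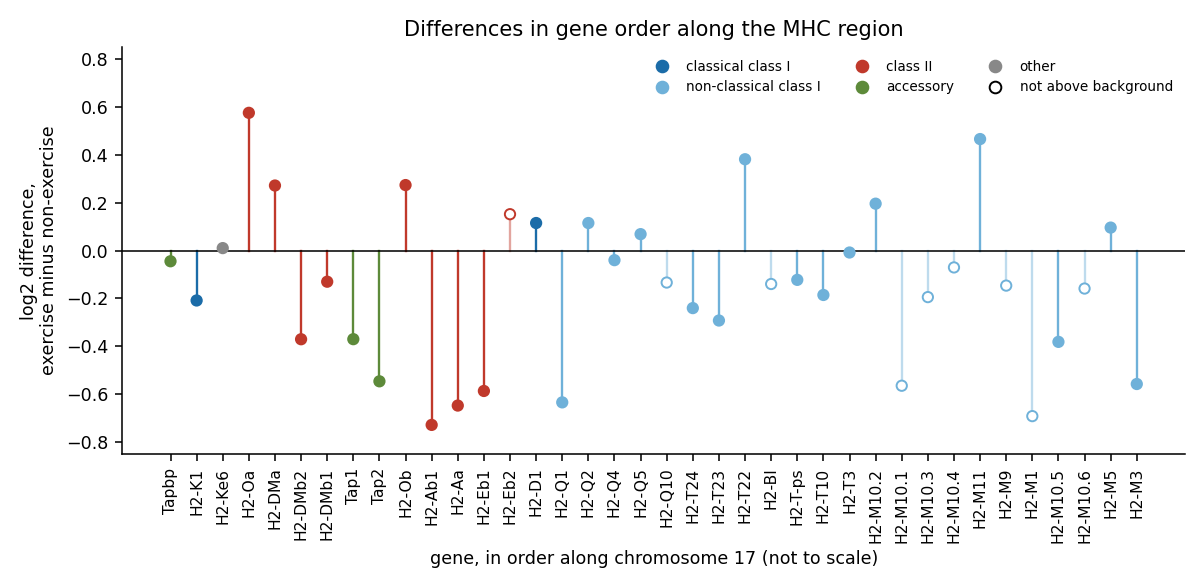
Log2 difference, MCAO + exercise minus MCAO + non-exercise, of the 38 members on chromosome 17 in their order along it, coloured by class, with open points for members not above background. H2-Ab1, H2-Aa and H2-Eb1 stand next to each other among the members at -0.73, -0.65 and -0.59, beside H2-Ob at 0.27.

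On chromosome 17, which holds the mouse MHC, lay 38 of the 47 members, in the order shown in the plot of differences along it. The class II presenting chains H2-Ab1, H2-Aa and H2-Eb1 follow each other there, and Tap1 and Tap2, also negative, lie a few members away. H2-Ob, between Tap2 and H2-Ab1, was at 0.27, so the negative values did not form an unbroken block. H2-Oa and H2-DMa, at 0.58 and 0.27, were neighbours among the members and both positive.

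Other genes of antigen presentation were described by lists. Among all 15196 kept genes, 8125 were higher and 7058 lower. Those that supply peptides to class I, 13 above background, had 7 higher, 6 lower and 0 past 1, with a median of 0.03. The immunoproteasome subunits Psmb8, Psmb9 and Psmb10, which replace constitutive subunits under interferon, were at -0.15, -0.30 and -0.09. Among genes that cut or prepare peptides for class II, 8 of 9 were lower and 1 higher, with a median of -0.12. Ifi30, a lysosomal thiol reductase, had a log2 intensity of 16.07 in the MCAO + exercise pool and 16.64 in the MCAO + non-exercise pool. At -0.56 it was the most negative of them, and Ctss, the protease that cuts the invariant chain, was at -0.11. The only higher one was Marchf1, a ligase that removes class II from the surface, at 0.23.

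Of the transcription factors, Irf1 and Irf8 had the most negative values, -0.63 and -0.52, whereas the RFX subunits Rfx5, Rfxank and Rfxap were at 0.14, 0.17 and 0.09 and the NF-Y subunits Nfya, Nfyb and Nfyc at 0.11, 0.39 and 0.14. The subunits of RFX and NF-Y were slightly higher by label, but a shift of the size that median centring brings would take Rfxap below 0 and Nfya to about 0. Their list had 7 of 12 higher and a median of 0.07. The 8 genes of interferon receptors and signalling ranged, 2 of them higher, from Jak1 at 0.55 to Irf9 at -0.55. Of 10 other costimulatory and checkpoint genes, 9 were lower with a median of -0.36, although Cd83, a marker of activated presenting cells, was at 0.37. Cd40, Pdcd1lg2, Cd276, Vtcn1, Tnfsf4 and Tnfsf9 had mean levels under 8. In that band the median over all kept genes was -0.10, and 21.6% were lower by more than 0.5. Icosl had 12.49 in the MCAO + exercise pool and 13.01 in the MCAO + non-exercise pool. Of the receptors that read MHC molecules, 8 of 8 above background were lower, with a median of -0.22. Cd8a and Klrd1, both among the 8, passed the background only on the MCAO + non-exercise array. They could therefore count only as lower, and the 8 of 8 is no independent count of direction. By comparison, 7058 of the 15196 kept genes were lower. Cd8a, the class I coreceptor of T cells, was at 4.73 in the MCAO + exercise pool, under the background there, and 6.67 in the MCAO + non-exercise pool. It was at least 3.42-fold lower in the MCAO + exercise pool, against the background level. Cd3e, a CD3 subunit of the T cell receptor complex, was at 5.46 in the MCAO + exercise pool and 5.64 in the MCAO + non-exercise pool, a difference of -0.18.

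**Figure D5:**
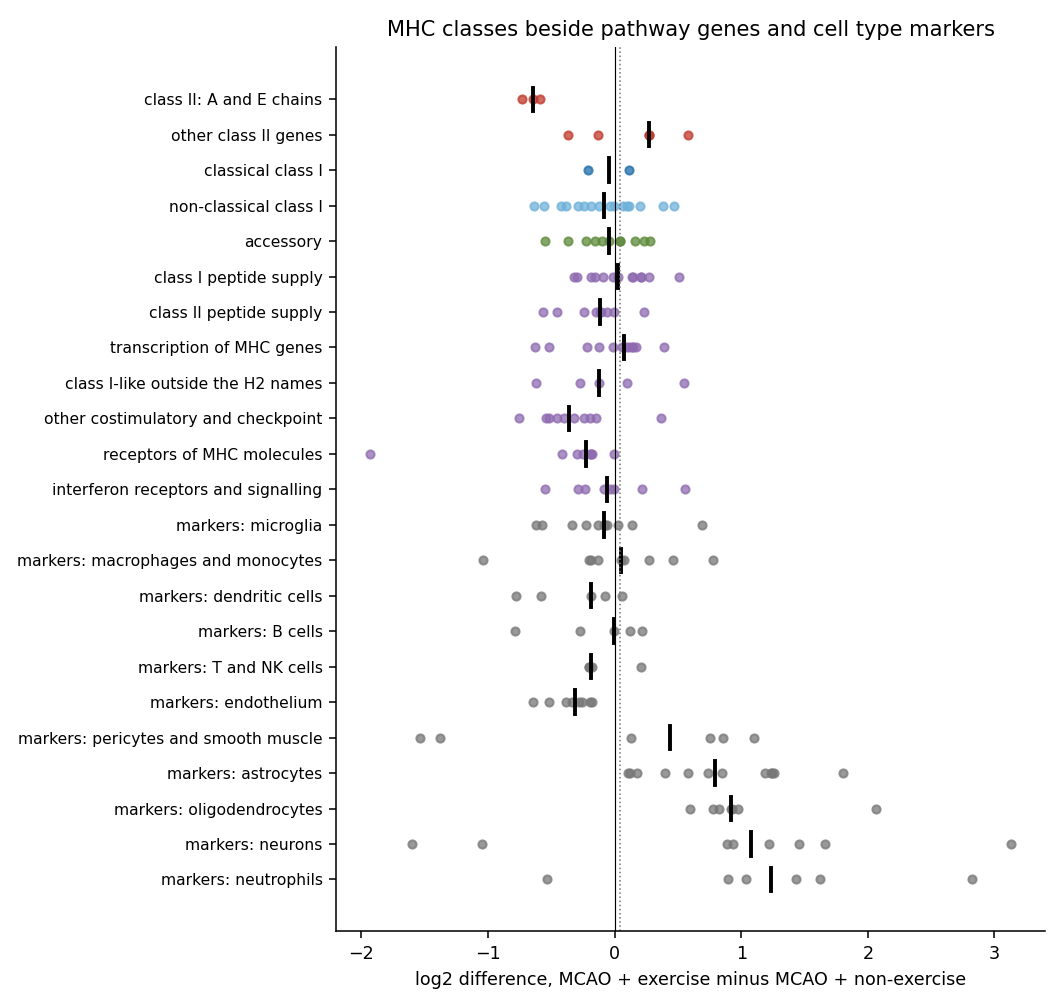
Log2 difference, MCAO + exercise minus MCAO + non-exercise, of the class members, of 7 lists of other pathway genes and of 11 lists of cell type markers (points, genes above background on at least 1 array), with a black bar at each median and a dotted line at the median of all kept genes, 0.04. The presenting chains of class II lie at or below -0.59, and the medians of astrocyte and oligodendrocyte markers are 0.80 and 0.92. The point at -1.94 is Cd8a, whose MCAO + exercise value is under background.

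Marker lists of microglia, macrophages, dendritic cells and B cells, which can carry class II, held genes of both signs. Their medians lay between -0.19 and 0.05, within the middle range of all kept genes, -0.29 to 0.36. The 11 kept microglia markers had a median of -0.09, 3 being higher and 8 lower. Trem2 and Tyrobp, a surface receptor and its adaptor, were at -0.57 and -0.62, near the values of H2-Aa and H2-Eb1, and Aif1, which encodes Iba1, was at -0.34. Csf1r and P2ry12, the receptors that keep and mark microglia, were at -0.06 and 0.02, and Tmem119 was at 0.69. The summed intensity of the microglia markers was 443562 in the MCAO + exercise pool and 484298 in the MCAO + non-exercise pool. Relative to the median of these markers, a measure chosen after the values were seen, H2-Ab1 was at -0.64, H2-Aa at -0.56 and H2-Eb1 at -0.50.

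The 9 macrophage and monocyte markers, 5 of them higher, ran from Lyve1 at 0.77 to Ms4a7 at -1.04 around a median of 0.05, with sums of 16732 in the MCAO + exercise pool and 22046 in the MCAO + non-exercise pool. Ms4a7, among the brightest of them, had a log2 intensity of 12.10 in the MCAO + exercise pool and 13.14 in the MCAO + non-exercise pool and weighed heavily in these sums. Of 5 kept dendritic cell markers, 4 were lower, Itgax at -0.58 and Ccr7 at -0.78 among them. The sums over the 8 measured were 13592 in the MCAO + exercise pool and 15598 in the MCAO + non-exercise pool. Most of each sum came from Siglech, which is also on the microglia list. It had 13.38 in the MCAO + exercise pool and 13.46 in the MCAO + non-exercise pool. The defining dendritic genes Flt3, Zbtb46 and Clec9a were below background on both arrays. B cell markers were dim and had a median of -0.01 over 5, with sums of 384 in the MCAO + exercise pool and 404 in the MCAO + non-exercise pool. T and NK cell markers had a median of -0.19 over 4, with sums over the 6 measured of 257 in the MCAO + exercise pool and 287 in the MCAO + non-exercise pool. Endothelial markers, from cells that can carry class I, were lower in 8 of 8, with a median of -0.31 and sums of 120391 in the MCAO + exercise pool and 150299 in the MCAO + non-exercise pool.

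Markers of the sorted cell went the other way. All 12 astrocyte markers were higher, with a median of 0.80 and sums of 218854 in the MCAO + exercise pool and 143905 in the MCAO + non-exercise pool. Oligodendrocyte markers were higher in 7 of 7, with a median of 0.92 and sums of 1163128 in the MCAO + exercise pool and 652250 in the MCAO + non-exercise pool. Neuron markers had a median of 1.08 over 8, 6 of them higher, but Syt1 was at -1.60 and Gad1 at -1.04. Neutrophil markers had a median of 1.23 over 6, 5 of them higher, and Mpo was at -0.54. Ltf, among the higher ones, passed the background only on the MCAO + exercise array and so could count only as higher. Markers of pericytes and smooth muscle were split around a median of 0.44 over 6. Of these, 4 were higher, whereas Acta2 and Myh11 were at -1.53 and -1.38. Most markers in these lists were higher by label, and their part in the values of the MHC genes was not tested.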

How the data were processed

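The authors pooled RNA of sorted cells, measured each pool on 1 Clariom S array through a contracted service and normalized with GCCN-SST-RMA. Per the labels, Affymetrix Expression Console and RMA were used, and versions and genome build are not given in the sources used here. The deposited intensity values are linear, so log2 was taken here, with no further scaling. Of 22142 probe sets, 19527 had 1 gene symbol in the platform annotation, 0 had several and 2615 had none. Each of the 47 members had 1 probe set. Members and lists were chosen with earlier results of these data known. All members may be named, and of other lists the brightest genes, those with the largest differences and others chosen after their values were seen. The study's filter on negative controls could not be repeated, so the 25th percentile of each array was used. No test could be made from 1 array a group, and that number sets the precision. The code that counts genes past a threshold was tested on simulated data. In all, 8 alternatives were tried: the 10th percentile as background, background exceeded on both arrays, no filter, median centring, quantile normalization, loess by level (span 0.3), an offset of 32 before log2 and the mean of probe sets. Python 3.11.15, NumPy 2.4.6, pandas 2.3.3, statsmodels 0.14.6 and matplotlib 3.10.9 were used. Names and promoters came from RefSeq (GRCm38.p6).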

Additional observations from a re-analysis of the deposited data

How the results depend on the processing

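No member passed a log2 difference of 1 under any of the 8 alternatives, and 30 of 38 members kept their sign in all of them. Only median centring, quantile normalization and loess could turn a sign. The background settings and the mean of probe sets leave the difference of a member with 1 probe set unchanged, and the offset alters only its size. Median centring gave medians of -0.15 for classical class I, -0.19 for non-classical class I, -0.36 for class II and -0.15 for accessory genes. Quantile normalization gave -0.22, -0.24, -0.44 and -0.16 in that order. Loess gave -0.19 for classical class I, -0.23 for non-classical class I and -0.44 for class II, and the accessory median, -0.14, moved by less than 0.1. The class II median was -0.13 with the background at the 10th percentile and with no filter, because H2-Eb2 then counted. Members higher by more than 0.5 numbered 0 after median centring and with an offset of 32, and 2 after quantile normalization and loess, against 1. Members lower by more than 0.5 numbered 4 to 8, against 6, while the share over all kept genes also moved, from 14.1%. It was 7.65% with the offset, where 4 members counted, and 19.0% after median centring, where 7 did. After quantile normalization it was 13.6%, where 8 members counted. Across alternatives H2-Ab1 ranged from -0.94 to -0.72, H2-Aa from -0.82 to -0.65 and H2-Eb1 from -0.79 to -0.57. No paired analysis was possible because each group had 1 array. Brightness limits the dim members, since 21.6% of kept genes under a mean level of 8 were lower by more than 0.5.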
